A study of Homo sapiens with 20 samples.

Results

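The class IIa histone deacetylases HDAC4, HDAC5, HDAC7 and HDAC9 and the 4 MEF2 transcription factors they bind, MEF2A, MEF2B, MEF2C and MEF2D, were examined as targets of chromatin regulation. H3K27ac, the acetylation of histone H3 at lysine 27 that marks active promoters and enhancers, had been profiled by ChIP-seq in HCT-116, an established human colorectal cancer cell line. An element of a gene was defined as a region that overlapped the GENCODE gene body plus 10 kb on each side, after the peaks of all 16 lists had been merged wherever they shared at least 1 bp. The 8 genes, of 20007 protein-coding genes, held 67 such elements of 58860 merged regions. HDAC4 had 19, HDAC5 7, HDAC7 11, HDAC9 12, MEF2A 2, MEF2B 3, MEF2C 8 and MEF2D 5. Elements were numbered from the 5′ end of each gene, so that HDAC4_1 lay upstream of the start site and HDAC4_19 near the 3′ end.

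The 8 groups combined genotype, silencing and drug, with 2 libraries each, replicate A and replicate B. Cells had intact FBXW7 (WT) or were knocked out for FBXW7 (KO), the gene for a ubiquitin ligase subunit. All had been transfected for 48 h with endoribonuclease-prepared siRNAs, either a control pool (esiCT) or a pool against HDAC4 (esiHDAC4). In 4 of the groups 50 µM oxaliplatin (OXPT) was present during the last 24 h, and the other groups were untreated (UNT). The KO line came from a commercial supplier, and the sources used here do not say whether it is 1 clone. The labels state that 3 experiments were pooled and the study's methods name a pair of biological replicates per condition, so p-values measure only the spread between these libraries. H3K27ac does not measure FBXW7 or HDAC4 protein, so neither the knockout nor the silencing could be checked from these lists.

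Class IIa deacetylases carry little deacetylase activity of their own. They shuttle between cytoplasm and nucleus, where they bind MEF2 factors and bring corepressor complexes to MEF2 target genes. Phosphorylation by CaM kinases, protein kinase D or salt-inducible kinases creates docking sites for 14-3-3 proteins, which hold the deacetylases in the cytoplasm and free MEF2 to recruit acetyltransferases such as EP300. Several of the deacetylase genes are known as targets of MEF2 themselves.

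Depth differed between libraries and moved with genotype. The lists held 1752 to 27927 peaks, and the background pileup recovered from fold and p-value ranged from 1.02 to 3.07 reads. The 4 replicate B libraries of KO cells had the 4 lowest backgrounds, 1.02 to 1.51 reads. The lowest fold called in each list was 1.23 to 1.54, at sites where the local background was above that of the library. At the background of a library, a peak could be called from a fold of 2.88 in the deepest-calling library and only from 3.96 in KO esiHDAC4 UNT replicate B. A peak missing from such a list was not detected at that depth, and replicate A values are therefore given beside the element calls with an unadjusted p under 0.05, the peak numbers of the 8 genes and the folds of HDAC7_3 and HDAC4_9. Replicate A lists differed by genotype as well, with 20136 to 27927 peaks in WT and 12639 to 21875 in KO. KO esiCT UNT replicate A had a background of 1.521 reads. The part of depth in the replicate A values was not tested. Of 11 markers of colorectal epithelium, 5 had a start-site peak in at least 12 libraries (KRT18 in all 16), while CDX1 and LGR5 had none. Of 11 markers of blood, stroma, endothelium, muscle and liver, 8 had no start-site peak in any library and the highest was COL1A1 with 11.

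HDAC4 was the only one of the 8 genes with a peak in every library, and the only one with a super-enhancer (SE, a dense group of H3K27ac peaks joined by ROSE) in more than 1. A peak in all 16 libraries was found at 484 genes, 2.42% of all, and an SE in at least 10 libraries at 194 genes, 0.97%. The gene (ENSG00000068024.18, minus strand) spans 239048168 to 239401654 on chromosome 2 of hg38, a body of 353.5 kb, and its canonical transcript starts at 239401020. Its acetylation was not centred on that start. The elements called most often lay 123.9 to 155.0 kb downstream, all inside intron 2 of the canonical transcript.

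**Figure D1:**
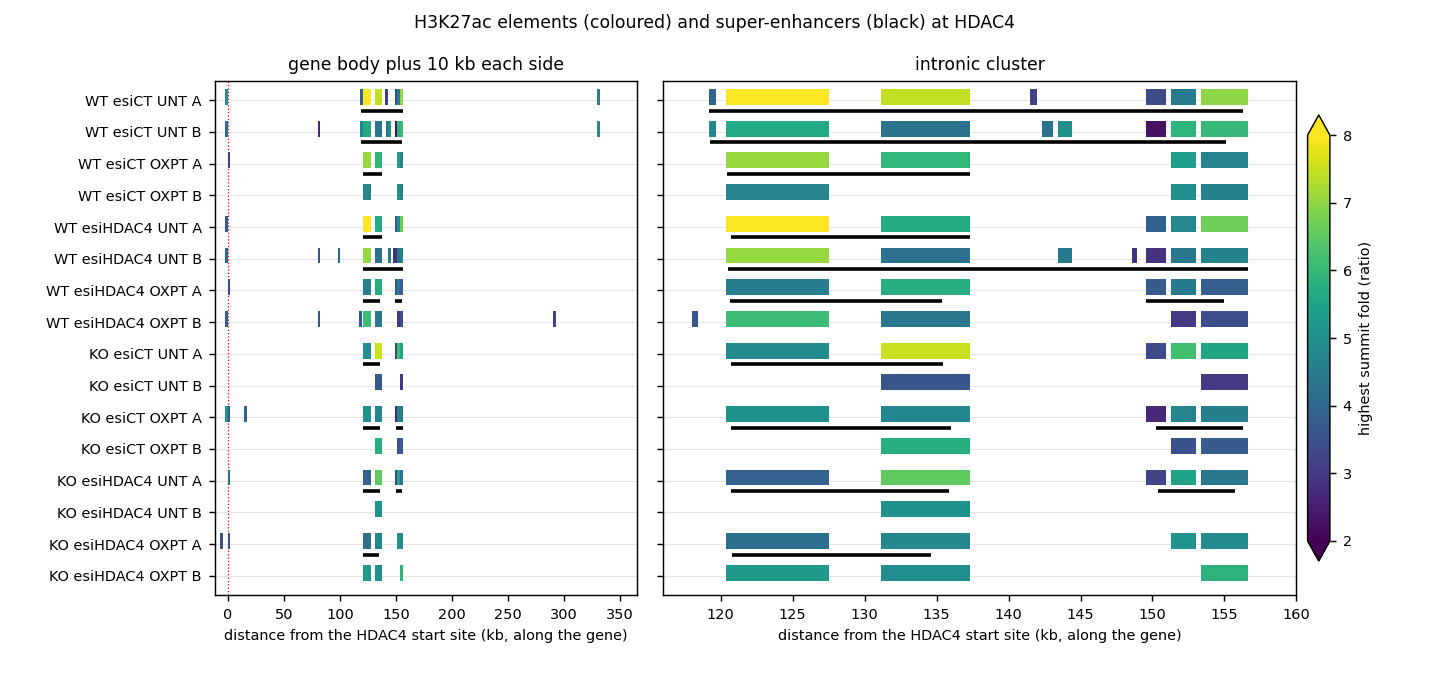
H3K27ac elements of HDAC4 in each of the 16 libraries, drawn by distance from the canonical start site in kb along the gene. Coloured bars are merged elements called in that library, coloured by the highest summit fold, black lines are called SEs, and the right panel enlarges the intron 2 cluster. HDAC4_10 and HDAC4_17 are coloured in 15 libraries each, and the black line spans nearly all of the cluster in 3 libraries, those with the most peaks.

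Around the start of HDAC4 the calls were few. HDAC4_1 (239406591 to 239407396, 6.0 kb upstream) was called in KO esiHDAC4 OXPT replicate A alone, at a fold of 3.39. HDAC4_2 (239401398 to 239402528, 0.9 kb upstream) was called in 6 libraries, 5 of them WT. Its fold was 5.04 and 4.17 in WT esiCT UNT, 3.77 and 3.98 in WT esiHDAC4 UNT, 3.83 in WT esiHDAC4 OXPT replicate B and 5.10 in KO esiCT OXPT replicate A. All 4 WT UNT libraries thus carried it. HDAC4_3 (239399449 to 239400627) lay 1.0 kb downstream, in intron 1 of the canonical transcript. The 201 bp at its summit lay wholly in annotated exon sequence of protein-coding genes. HDAC4_3 was called in 5 libraries, all replicate A. These were all 4 OXPT libraries of replicate A, at 3.08 and 3.45 in WT and 3.57 and 3.43 in KO for esiCT and esiHDAC4, and KO esiHDAC4 UNT at 4.19. No replicate B library had it.

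Between the start and the cluster the calls were rare. HDAC4_4 (239385389 to 239385700, 15.5 kb downstream in intron 1) was called in KO esiCT OXPT replicate A at 4.03. HDAC4_5 (239319323 to 239320028, 81.3 kb) was called in 3 libraries, all WT replicate B, at 2.63, 3.51 and 3.56. HDAC4_6 (239301749 to 239302047, 99.1 kb) was called in WT esiHDAC4 UNT replicate B at 3.92, and HDAC4_7 (239282629 to 239283032, 118.2 kb) in WT esiHDAC4 OXPT replicate B at 3.60. Each of these was thus seen in 3 libraries or fewer.

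The cluster itself ran from HDAC4_8 to HDAC4_17. Its 4 leading elements were HDAC4_9 (239273488 to 239280666, 7179 bp), HDAC4_10 (239263681 to 239269891, 6211 bp), HDAC4_16 (239248009 to 239249700, 1692 bp) and HDAC4_17 (239244371 to 239247640, 3270 bp). They were called in 13, 15, 13 and 15 libraries. HDAC4_15 (239250064 to 239251496) was called in 8. The remaining members of the cluster were called in 1 or 2 libraries. HDAC4_8 (239281347 to 239281828) was found in both WT esiCT UNT libraries at 3.88 and 4.77. HDAC4_11 (239259034 to 239259530) appeared in WT esiCT UNT replicate A at 3.19, HDAC4_12 (239257942 to 239258701) in WT esiCT UNT replicate B at 4.27, HDAC4_13 (239256603 to 239257563) in both WT UNT libraries of replicate B at 4.95 and 4.42, and HDAC4_14 (239252111 to 239252471) in WT esiHDAC4 UNT replicate B at 2.90. All calls of these 5 small elements came from the 3 libraries with the most peaks (27927, 25333 and 27335), and the part of list length was not tested. Downstream of the cluster, HDAC4_18 (239109317 to 239109659, 291.5 kb, intron 14) was called in WT esiHDAC4 OXPT replicate B at 3.13 and HDAC4_19 (239069794 to 239070203, 331.0 kb, intron 22) in both WT esiCT UNT libraries at 4.53 and 4.77.

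The summit sequences of HDAC4_10, HDAC4_16 and HDAC4_17 are given because these elements carry acetylation of the gene in 13 to 15 libraries. Each is the 201 bp of the hg38 plus strand centred on the summit of the element's peak with the smallest p-value. None overlapped an annotated exon of a protein-coding gene, and no motif that was searched occurred in them.
HDAC4_10 (chr2:239267745-239267945): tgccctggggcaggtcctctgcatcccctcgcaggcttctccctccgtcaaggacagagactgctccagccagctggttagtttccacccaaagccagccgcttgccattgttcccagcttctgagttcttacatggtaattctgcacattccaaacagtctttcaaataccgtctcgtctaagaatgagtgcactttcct
HDAC4_16 (chr2:239248595-239248795): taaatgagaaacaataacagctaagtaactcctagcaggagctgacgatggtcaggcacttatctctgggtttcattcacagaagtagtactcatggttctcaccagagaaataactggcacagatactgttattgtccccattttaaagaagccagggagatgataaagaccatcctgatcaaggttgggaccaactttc
HDAC4_17 (chr2:239247202-239247402): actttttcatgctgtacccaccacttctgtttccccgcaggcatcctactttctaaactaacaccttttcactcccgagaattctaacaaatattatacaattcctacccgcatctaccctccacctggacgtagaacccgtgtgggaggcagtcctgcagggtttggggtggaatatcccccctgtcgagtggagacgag

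Some of these intronic elements contained annotated start sites. Of 5 RefSeq starts of HDAC4, 2 lay inside HDAC4_9 (239274781 and 239273627) and 1 inside HDAC4_10 (239267514), the elements called in 13 and 15 libraries. The start at 239401649 lay inside HDAC4_2, which 6 libraries called, and the start at 239298530 in no element. In GENCODE version 44 the nearest start of a protein-coding HDAC4 transcript was 28546 bp from HDAC4_9 and 39321 bp from HDAC4_10, so these elements count as intronic here. Starts of non-coding transcripts were not considered. The lists do not show which of these starts was transcribed.

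Every WT library and 5 of the KO libraries called HDAC4_9. Its summit fold, the ratio of the pileup at the summit to the local background in the deposited lists, was in WT cells 9.06 and 5.63 for esiCT UNT, 7.08 and 4.71 for esiCT OXPT, 8.22 and 7.06 for esiHDAC4 UNT and 4.52 and 6.09 for esiHDAC4 OXPT, replicate A before B. In KO cells it was 4.84 for esiCT UNT, 5.06 for esiCT OXPT, 3.83 for esiHDAC4 UNT and 4.18 for esiHDAC4 OXPT in replicate A and 5.21 in replicate B of the last group. The KO folds of 3.83 and 4.18 lay below the WT range of 4.52 to 9.06, and the other 3 lay within it. The summit of this element held 26 reads in WT esiCT UNT replicate A, with a 95% exact Poisson interval of 17 to 38.1, and 14 reads (7.7 to 23.5) in KO esiCT UNT replicate A, intervals that cover counting error only.

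HDAC4_10 was the most widely shared element with HDAC4_17. Its fold in WT cells was 7.46 and 4.29 for esiCT UNT, 5.94 for esiCT OXPT replicate A, 5.67 and 4.22 for esiHDAC4 UNT and 5.75 and 4.37 for esiHDAC4 OXPT. In KO cells it was 7.52 and 3.61 for esiCT UNT, 4.75 and 5.79 for esiCT OXPT, 6.53 and 5.04 for esiHDAC4 UNT and 4.78 and 4.92 for esiHDAC4 OXPT. It was the only element of the 67 called in KO esiHDAC4 UNT replicate B, the list with 1752 peaks. The WT range was 4.22 to 7.46 and the KO range 3.61 to 7.52.

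HDAC4_16 had folds of 2.99 to 5.90 in the 8 WT libraries and of 3.49 to 6.17 in 5 KO libraries, the highest being KO esiCT UNT replicate A. HDAC4_17 had 3.42 to 6.98 in the 8 WT libraries and 3.01 to 5.86 in 7 KO libraries. Within WT esiCT cells, HDAC4_17 had 6.98 and 6.02 untreated against 4.72 and 4.63 after OXPT, and within WT esiHDAC4 cells 6.68 and 4.68 against 3.79 and 3.42. The median fold over all regions called in at least 3 libraries was also lower after OXPT in these pairs, at 4.88 and 4.28 against 4.21 and 4.16 for esiCT and 4.54 and 4.16 against 4.17 and 3.99 for esiHDAC4. In KO the values were 5.55 and 3.01 against 4.58 and 3.71 for esiCT, and 4.39 in replicate A against 4.88 and 5.86 for esiHDAC4. HDAC4_15, the weakest of the 5, was called in 6 UNT and 2 OXPT libraries at folds of 2.26 to 3.82.

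**Figure D2:**
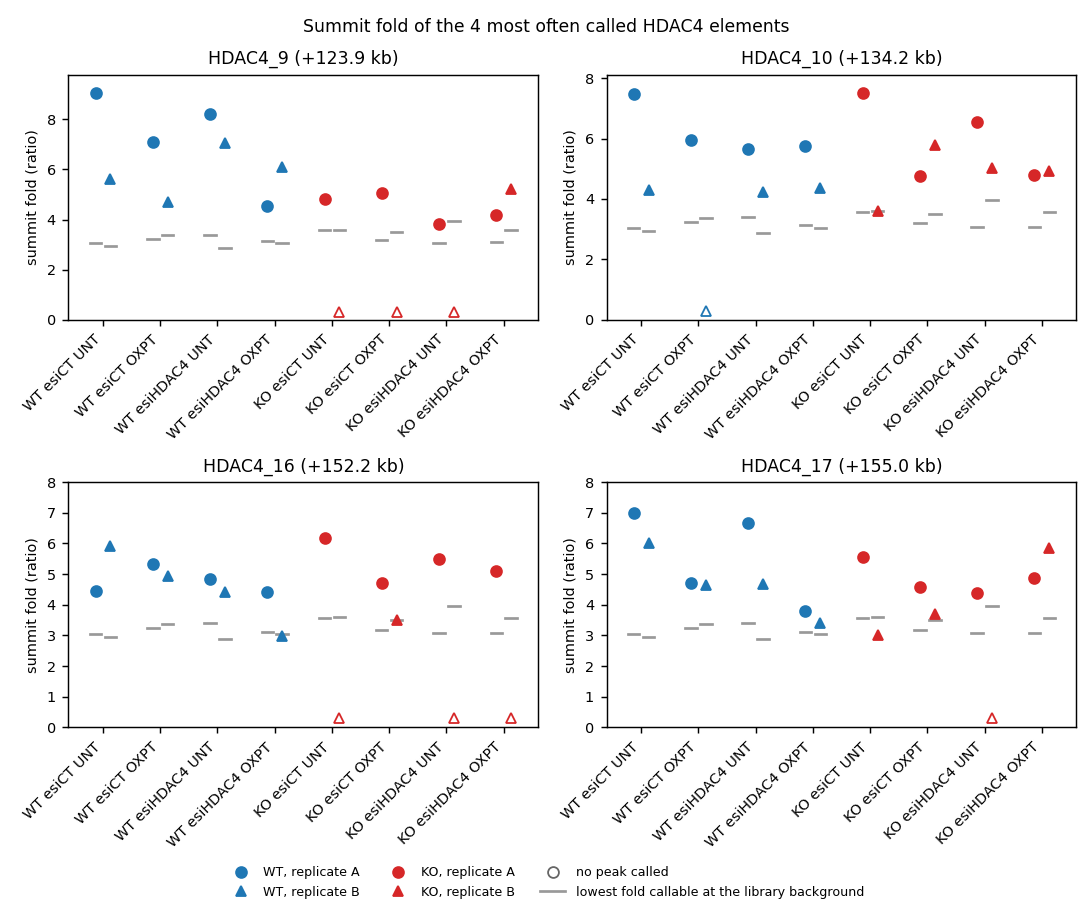
Summit fold (ratio, linear axis from 0) of HDAC4_9, HDAC4_10, HDAC4_16 and HDAC4_17 in each library, blue for WT, red for KO, circles for replicate A and triangles for replicate B. Grey dashes give the lowest fold that could be called at the background of that library, and open symbols near 0 stand for libraries with no peak, which are not measurements of 0. A few called folds lie below their dash. Each open symbol but 1 belongs to a KO replicate B library, and the HDAC4_9 panel shows KO points at 3.83 to 5.21 against WT points at 4.52 to 9.06.

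The SE of HDAC4 was called in 10 of 16 libraries. All 8 replicate A libraries had it, and in replicate B it was called in WT esiCT UNT and WT esiHDAC4 UNT. The union of all calls ran from 239244371 to 239281828 on chromosome 2, 37.5 kb, which is the cluster from HDAC4_8 to HDAC4_17. A single SE covered nearly all of it in WT esiCT UNT (37.1 kb in replicate A and 35.9 kb in B) and in WT esiHDAC4 UNT replicate B (36.1 kb). In WT esiHDAC4 UNT replicate A the SE was 16.6 kb and held HDAC4_9 and HDAC4_10 only. After OXPT it was 16.9 kb in WT esiCT replicate A, and 14.7 and 5.5 kb as separate pieces in WT esiHDAC4 replicate A. In KO replicate A the piece with HDAC4_9 and HDAC4_10 was 14.7 kb for esiCT UNT, 15.3 kb for esiCT OXPT, 15.1 kb for esiHDAC4 UNT and 13.8 kb for esiHDAC4 OXPT. A second piece over HDAC4_15 to HDAC4_17 was called in KO esiCT OXPT (6.0 kb) and KO esiHDAC4 UNT (5.4 kb). The 3 libraries with the long SE were those with the most peaks, 27927, 25333 and 27335, and the part of list length was not tested.

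The exact conditional test stratified by replicate could not show a difference in SE presence at HDAC4. All 8 replicate A libraries had the SE, so only the 2 calls in replicate B carried information, and the smallest p this allows is 0.429. An SE was present in 6 WT and 4 KO libraries, a difference of -25.0 percentage points (exact p = 0.429, adjusted p = 1.0 by Benjamini-Hochberg over 739 genes), in 6 UNT and 4 OXPT libraries (-25.0 points, exact p = 0.429, adjusted p = 1.0), and in 5 libraries of each esiRNA (0.0 points, exact p = 1.0). Over all genes tested, 6.36% had an unadjusted p under 0.05 for genotype, 1.35% for OXPT and 0.135% for silencing, and 0 passed the adjusted threshold. Of the 8 genes only HDAC4 had enough SE calls to be tested. An SE was called once at each of HDAC5 (10.7 kb, WT esiCT UNT replicate B), HDAC7 (4.6 kb, KO esiCT OXPT replicate A) and MEF2C (7.8 kb, WT esiCT UNT replicate B).

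Among 1614 genes with an SE in some library that lay more than 1 Mb from HDAC4, AHNAK2, MKNK2 and MOB3A had SE calls equal to those of HDAC4 in 16 of 16 libraries. BAHCC1 and DENND6B followed with 15 of 16 (93.8%), and 15 genes in all reached that share. The 10 libraries with the SE include all 8 of replicate A, so the likeness is a description over 16 lists that share their depth.

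HDAC5 (chromosome 17, 44076746 to 44123702, minus strand) had 7 elements, each called in at least 3 libraries. HDAC5_1, at its start site (44122712 to 44124951), was called in all 8 WT libraries at 3.05 to 6.93 and in 3 KO libraries, all replicate A, at 4.16 to 4.64. HDAC5_2, in intron 3 (44095075 to 44097252), was called in all 8 WT libraries at 3.71 to 5.48 and in the 4 KO libraries of replicate A at 3.86 to 5.12. HDAC5_5 (44070906 to 44072492), the element with the most calls at 13, lay in the 3′ flank within 1 kb of a start of G6PC3, and HDAC5_6 and HDAC5_7 lay at starts of G6PC3 and LSM12. The flank elements may therefore belong to neighbouring genes, which H3K27ac position alone cannot tell apart. HDAC5_3 and HDAC5_4 overlapped exons 13 and 14 and were called in 4 and 3 libraries.

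HDAC7 (chromosome 12, 47782722 to 47833132, minus strand) had a start-site element called as widely as any start-site element of the class IIa genes. HDAC7_3 (47818906 to 47821564) spans the canonical start at 47819903 and HDAC7_4 (47811689 to 47813974) a second annotated start 7.1 kb downstream in intron 1, and both were called in 12 libraries. The other 9 elements were each called in 1 or 2. HDAC7_3 had folds in WT cells of 10.5 and 5.90 for esiCT UNT, 7.43 and 5.95 for esiCT OXPT, 5.16 and 5.53 for esiHDAC4 UNT and 7.08 and 4.57 for esiHDAC4 OXPT. In KO cells it was called in replicate A only, at 5.07, 4.25, 4.35 and 3.39 for the same 4 conditions. Within replicate A every KO fold as deposited lay below every WT fold. No overlap in either direction was found there for 9.2% of regions. The HDAC7_4 folds overlapped, with 3.78 to 5.71 in KO and 4.54 to 7.21 in WT replicate A libraries. HDAC7_7 and HDAC7_9, near further annotated starts, were each called once.

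HDAC9 (chromosome 7, 18086949 to 19002416, plus strand, a body of 915.5 kb) had no peak at the start of its canonical transcript, 18495749, in any library. Its only calls near annotated starts were HDAC9_3 (18508719 to 18508991) in WT esiHDAC4 OXPT replicate B at 3.78 and HDAC9_4 (18509466 to 18509766) in WT esiCT OXPT replicate A at 2.98. None of its 5 RefSeq starts lay inside an element. The acetylation of the gene was instead found far downstream, at HDAC9_7 in intron 12 (18666781 to 18668445, 171.9 kb from the start) and at HDAC9_11 in intron 22 (18895634 to 18896629, 400.4 kb). These introns are those of the canonical transcript. The 201 bp at the summit of HDAC9_7 lay wholly in annotated exon sequence of protein-coding genes.

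HDAC9_7 was called in 14 libraries, 7 of each genotype. Its fold in WT cells was 5.00 and 2.38 for esiCT UNT, 5.94 and 4.69 for esiCT OXPT, 3.89 and 4.79 for esiHDAC4 UNT and 2.54 for esiHDAC4 OXPT replicate B. In KO cells it was 4.63 and 6.40 for esiCT UNT, 5.56 and 6.98 for esiCT OXPT, 3.93 for esiHDAC4 UNT replicate A and 3.05 and 5.83 for esiHDAC4 OXPT. The 3 KO replicate B libraries that called it had 3 of the 4 highest folds. HDAC9_11 was called mostly in WT cells. All 8 WT libraries had it, at 5.84 and 3.49 for esiCT UNT, 3.94 and 3.87 for esiCT OXPT, 3.78 and 3.99 for esiHDAC4 UNT and 3.95 and 3.53 for esiHDAC4 OXPT, and of the KO libraries only esiCT OXPT replicate A did, at 2.88. The WT folds were close to the lowest fold callable at background in the KO libraries, which was 3.07 to 3.96, and the part of depth was not tested. HDAC9_2, in the part of the gene body upstream of the canonical start (18420601 to 18421609), was called in 4 OXPT libraries and no UNT library, at 3.78 and 3.63 in WT esiHDAC4, 3.59 in KO esiCT replicate B and 4.10 in KO esiHDAC4 replicate A.

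The summit sequences of HDAC7_3 and HDAC9_11 are given because they are the start-site and distal elements with the smallest genotype p-values in the fits of folds and of calls. Capitals mark a match to the FOXO motif TGTTTAC on either strand, which HDAC7_3 holds and HDAC9_11 does not. Both are hg38 plus strand and overlap no annotated exon of a protein-coding gene.
HDAC7_3 (chr12:47820238-47820438): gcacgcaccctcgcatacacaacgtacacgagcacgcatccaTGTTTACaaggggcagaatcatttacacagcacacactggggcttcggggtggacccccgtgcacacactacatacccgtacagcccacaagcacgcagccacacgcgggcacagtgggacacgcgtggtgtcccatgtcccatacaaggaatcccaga
HDAC9_11 (chr7:18895920-18896120): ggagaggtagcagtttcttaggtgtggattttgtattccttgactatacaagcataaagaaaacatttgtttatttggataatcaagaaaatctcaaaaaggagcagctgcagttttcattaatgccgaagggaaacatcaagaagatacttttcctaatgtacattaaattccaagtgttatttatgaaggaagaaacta

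**Figure D3:**
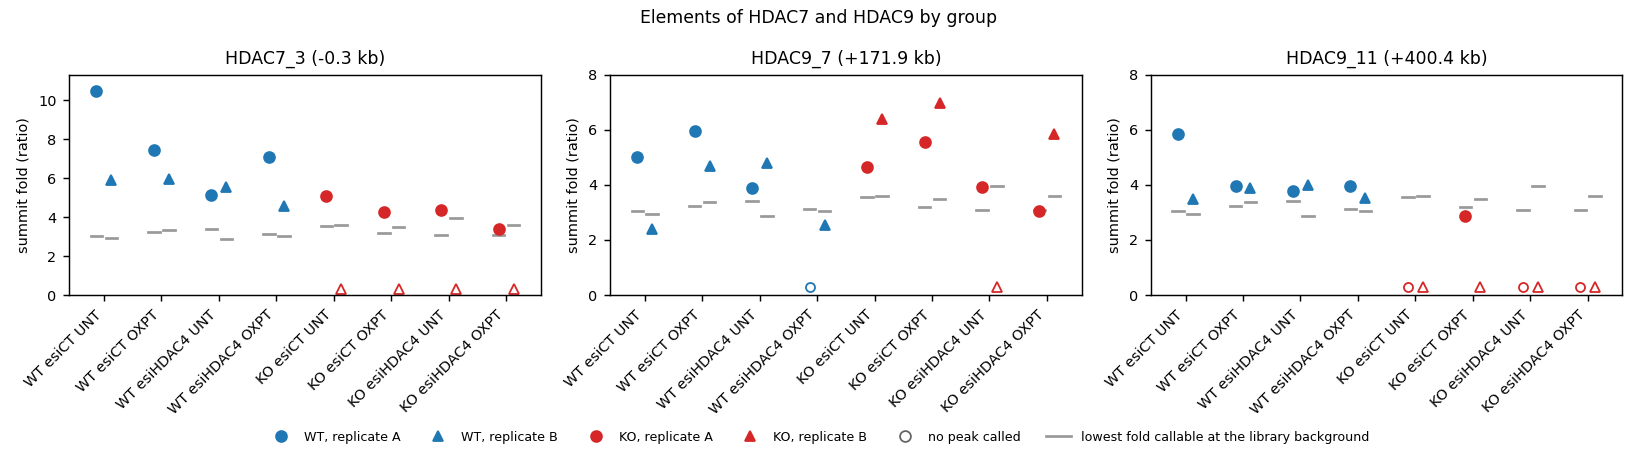
Summit fold (ratio, linear axis from 0) of HDAC7_3, HDAC9_7 and HDAC9_11 in each library, with symbols as in the plot of HDAC4 folds and open symbols for libraries with no peak. HDAC9_11 has filled symbols in all 8 WT libraries and in 1 KO library at 2.88, and HDAC7_3 has 4 KO points at 3.39 to 5.07.

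The MEF2 genes differed in where their acetylation lay. MEF2A (chromosome 15, 99565417 to 99716488, plus strand) had 1 recurrent element, MEF2A_1 at its start site (99565276 to 99567535), which spans 3 RefSeq starts. It was called in 9 libraries, 5 WT and 4 KO, at 2.87 to 5.32. MEF2A_2, in intron 10, was called in 2 WT libraries.

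MEF2B (chromosome 19, 19145567 to 19192131, minus strand) had no peak at its canonical start, 19170263. Its start-site elements MEF2B_1 (19192841 to 19193760) and MEF2B_2 (19190987 to 19192598) were called in 9 and 10 libraries and lie within 1 kb of the starts of BORCS8, RFXANK and the BORCS8-MEF2B readthrough gene, far upstream of that start. MEF2B_3 lay at a start of TMEM161A and was called in 9. No element of MEF2B was thus free of another gene's promoter, and its values cannot be told apart from theirs.

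MEF2C (chromosome 5, 88717117 to 88904257, minus strand) had acetylation at 3 separate annotated starts. MEF2C_5 (88783637 to 88787445, 97.6 kb from the canonical start, at a RefSeq start) was called in 13 libraries, at 4.10 to 5.76 in all 8 WT and 3.43 to 5.14 in 5 KO libraries. MEF2C_4 (88824540 to 88829089, 56.4 kb, at another start) was called in 7 WT and 3 KO libraries at 3.29 to 5.93. At the canonical start, MEF2C_2 (88881912 to 88883132) was called in 6 WT libraries and 1 KO library at 2.54 to 5.01, and MEF2C_1 (88883594 to 88884725) in 3 WT UNT libraries at 2.57 to 4.86. The number of peaks over the locus was 7 and 9 in WT esiCT UNT, 5 and 1 in WT esiCT OXPT, 8 and 9 in WT esiHDAC4 UNT and 4 and 3 in WT esiHDAC4 OXPT, against 0 to 3 in the KO libraries. The whole lists held 10562 to 27927 peaks in WT and 1752 to 21875 in KO, and the part of list length in this was not tested.

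MEF2D (chromosome 1, 156463727 to 156500779, minus strand) carried a pair of elements at its 5′ end. MEF2D_1 (156502745 to 156506076, 3.6 kb upstream) was called in 13 libraries, at 3.14 to 6.08 in all 8 WT and 3.76 to 4.53 in 5 KO libraries. MEF2D_2, at the canonical start (156499473 to 156502437), was called in 12 at 3.17 to 6.30. MEF2D_3, at a second start in intron 1, was called in 5 libraries and MEF2D_4, in the 3′ flank, in 10.

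Sequences at MEF2C_1 and MEF2D_2 are given as MEF2 start-site elements with a MEF2, AP-1 or FOXO match. Capitals in MEF2C_1 mark the match to the MEF2 motif, CTAATTTTAG, and to the AP-1 motif TGANTCA, and in MEF2D_2 a FOXO motif on the minus strand. Both are hg38 plus strand without annotated exon bases of protein-coding genes.
MEF2C_1 (chr5:88883886-88884086): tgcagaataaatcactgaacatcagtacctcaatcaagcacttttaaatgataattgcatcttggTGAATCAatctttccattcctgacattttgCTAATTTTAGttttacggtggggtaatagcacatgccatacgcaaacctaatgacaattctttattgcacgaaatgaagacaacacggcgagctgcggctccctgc
MEF2D_2 (chr1:156501587-156501787): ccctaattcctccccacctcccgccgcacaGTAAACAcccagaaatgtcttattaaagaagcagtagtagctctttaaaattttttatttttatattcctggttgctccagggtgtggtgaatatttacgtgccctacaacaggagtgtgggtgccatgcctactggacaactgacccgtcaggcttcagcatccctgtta

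**Figure D4:**
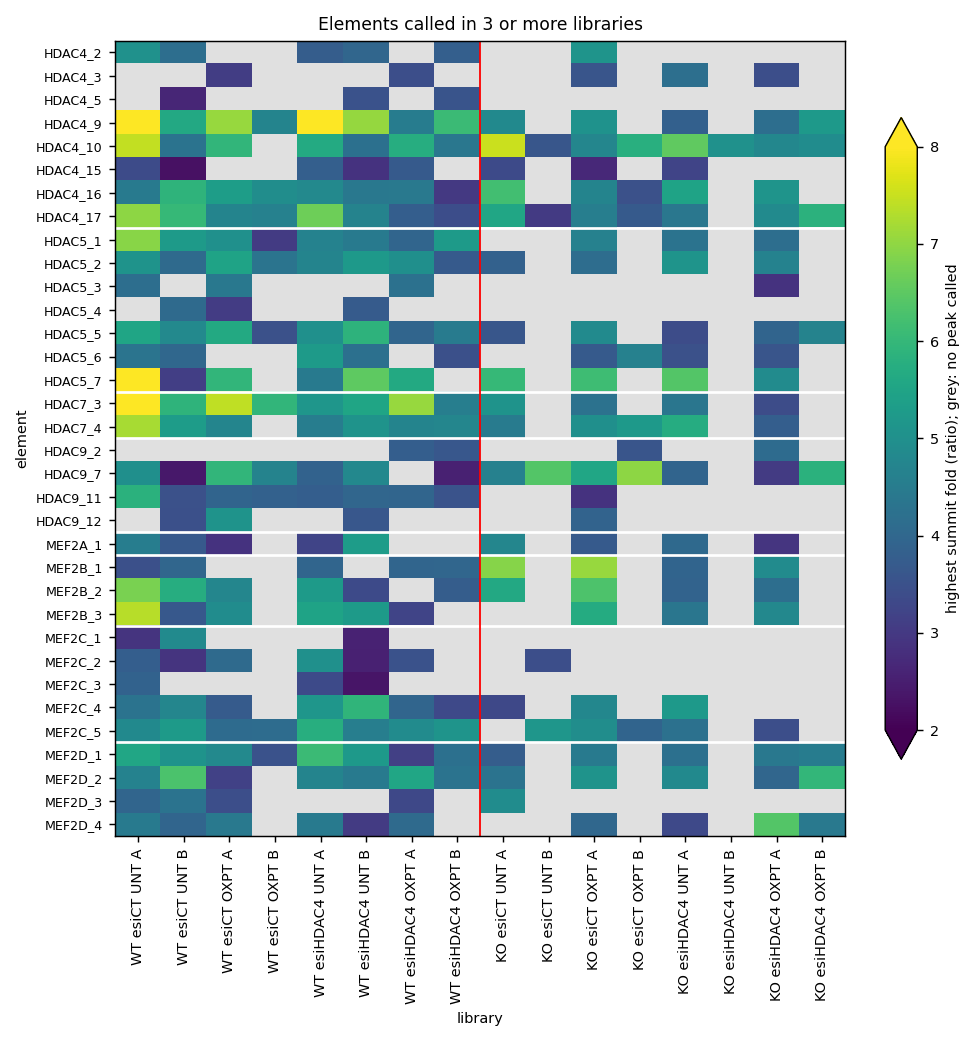
Highest summit fold (ratio, colour) of the 34 elements called in at least 3 libraries, with elements as rows and libraries as columns, WT left and KO right of the red line. Grey stands for no peak called in that library, and the columns with the most grey are the shallow KO replicate B lists and WT esiCT OXPT replicate B, the WT list with the fewest peaks at 10562.

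Genotype was compared first over element calls. Of the 67 elements, 34 were called in at least 3 libraries, and 31 could be tested, since 3 were called in more than 13. In KO against WT 29 of the 31 were called less often, 1 more often (HDAC4_3) and 1 equally (HDAC9_2), with a median difference of -37.5 percentage points. The median over all 20090 regions tested was also -37.5 points. No element passed the adjusted threshold of 0.05 in the exact conditional test (smallest adjusted p = 0.208), and 0 of all regions did. At an unadjusted p under 0.05 there were 5, all lower in KO, against 13.6% of all regions. They were HDAC9_11 (8 WT and 1 KO libraries, -87.5 points, exact p = 0.00204), HDAC5_1 (8 and 3, -62.5 points, exact p = 0.0143), HDAC5_2 (8 and 4, -50.0 points, exact p = 0.0286), HDAC7_3 (8 and 4, -50.0 points, exact p = 0.0286) and MEF2C_2 (6 and 1, -62.5 points, exact p = 0.0469). In replicate A alone, HDAC9_11 was called in 4 WT and 1 KO libraries, HDAC5_1 in 4 and 3, MEF2C_2 in 4 and 0, and HDAC5_2 and HDAC7_3 in 4 and 4. The part of depth in these differences was not tested.

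Genotype was next compared over the number of peaks per locus. At HDAC4 the lists held 10 and 17 peaks in WT esiCT UNT, 11 and 4 in WT esiCT OXPT, 10 and 15 in WT esiHDAC4 UNT and 9 and 11 in WT esiHDAC4 OXPT, replicate A before B. In KO they held 8 and 2, 13 and 3, 11 and 1, and 11 and 4. Replicate A of the genotypes overlapped, and every KO replicate B library had 4 peaks or fewer. The mean of log2(peaks + 1) was lower in KO by the exact permutation test within replicates at an unadjusted p under 0.05 for 6 of the 8 genes, against 31.3% of 13778 genes, and for 0 after adjustment over those genes (0 of all genes, with 4314 unadjusted). The differences, KO minus WT on the log2 scale, were -0.86 for HDAC4 (exact p = 0.0486, adjusted p = 0.157), -1.27 for HDAC5 (exact p = 0.00408, adjusted p = 0.0727), -0.77 for HDAC7 (exact p = 0.0318), -0.76 for HDAC9 (exact p = 0.0253), -1.44 for MEF2C (exact p = 0.00286, adjusted p = 0.0692) and -0.97 for MEF2D (exact p = 0.0429). They were -0.25 for MEF2A (exact p = 0.612) and -0.65 for MEF2B (exact p = 0.133). The median of the 8 was -0.81, and the median of all genes -0.52.

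Within replicate A, with 4 libraries of each genotype, HDAC4, HDAC7, MEF2A and MEF2B had differences at or above 0. The values there were 0.08 for HDAC4, -0.30 for HDAC5, 0.04 for HDAC7, -0.46 for HDAC9, 0.25 for MEF2A, 0.10 for MEF2B, -1.12 for MEF2C and -0.15 for MEF2D. When the log2 of the library's total number of peaks was subtracted, 6 of the 8 genes changed sign and had higher values in KO, with differences from -0.27 (MEF2C) to 0.93 (MEF2A), and the median of all genes moved to 0.65. On that scale 2492 genes passed higher and 6 lower, and none of the 8 did. Since 1 is added to each peak number, a locus without a peak scores higher in a shorter list. Part of a rise in KO is thus built into this scale, and its size was not tested. HDAC5 and MEF2C, at -0.10 and -0.27, were the only ones with a negative value on both scales. Measured as kb covered by peaks, 5 of the 8 passed the adjusted threshold, all lower in KO. They were HDAC4 at -1.30 (adjusted p = 0.0262 by exact permutation), HDAC5, HDAC7, MEF2C and MEF2D. Over all genes, 3069 of the 13778 tested passed in either direction. Covered length was not tested in replicate A alone, nor was the part of depth in it.

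**Figure D5:**
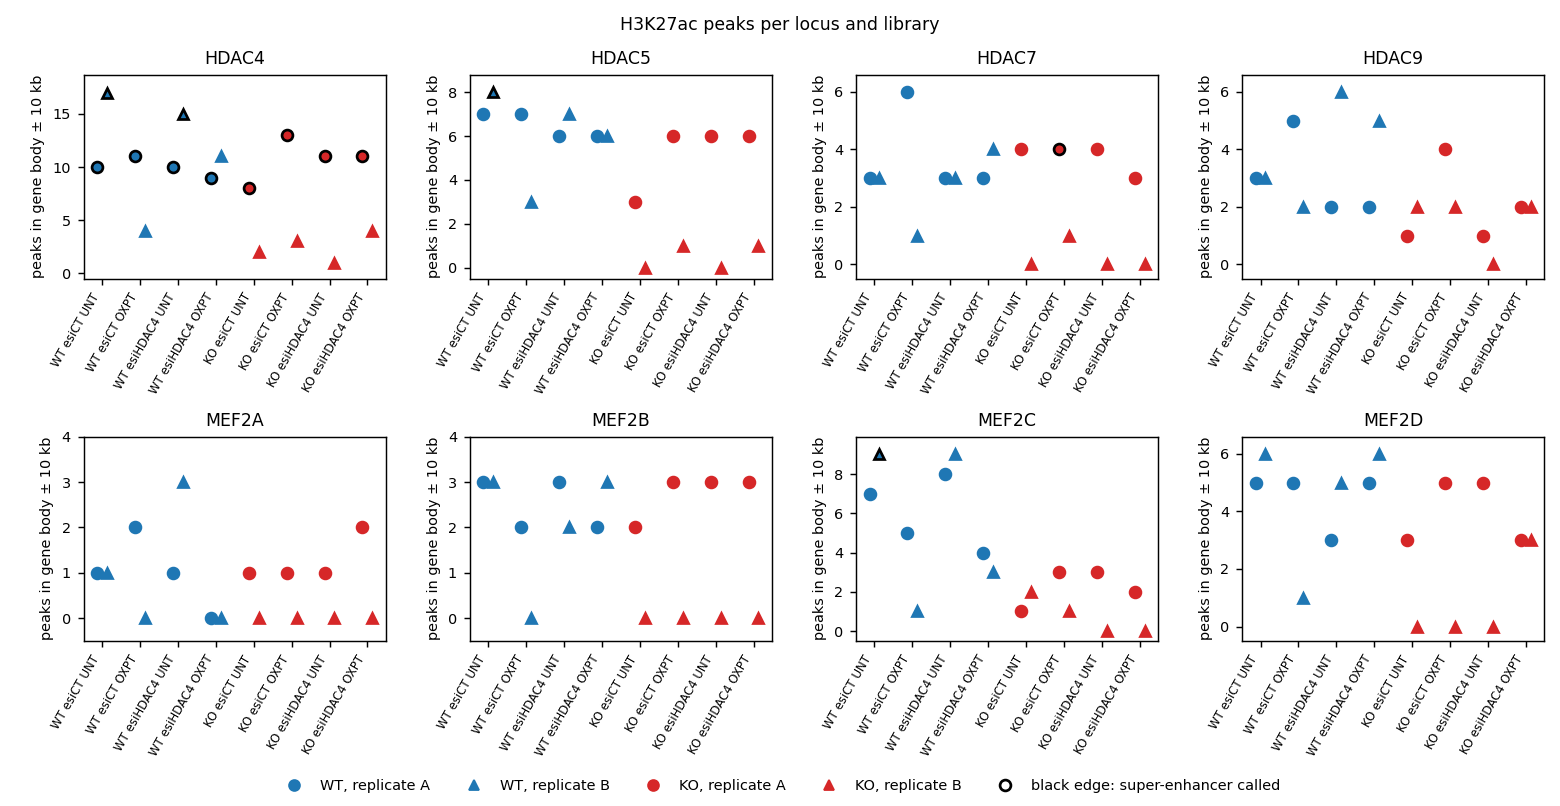
Number of H3K27ac peaks in the gene body plus 10 kb on each side for each of the 8 genes and 16 libraries, linear axes, blue for WT, red for KO, circles for replicate A, triangles for replicate B and a black edge where an SE was called. KO replicate B triangles lie at 0 to 4 in every panel, and MEF2C has WT circles at 4 to 8 and KO circles at 1 to 3.

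Summit folds were compared where a peak was called. No element of the 8 genes was among the 472 regions called in all 16 libraries, so the values come from regions called in at least 12 libraries, with missing libraries left out of the fit, which holds 12 of the 67 elements. In limma, with the 8 groups and the replicate as terms and library medians subtracted, HDAC7_3 was lowest in KO against WT, at a log2 difference of -0.68 ± 0.18 (SE, 12 libraries), a fold of 0.62 (limma adjusted p = 0.0626). HDAC4_9 was at -0.47 ± 0.17 (13 libraries, limma adjusted p = 0.164) and HDAC9_7 at 0.46 ± 0.17 (14 libraries, limma adjusted p = 0.169). The other 9 elements lay between -0.21 and 0.21. A fold exists only where a peak was called, so these differences leave out folds too low to be called. Among KO replicate B libraries, HDAC7_3 was called in 0, HDAC4_9 in 1 and HDAC9_7 in 3. The part of the missing calls in the differences was not tested. At an unadjusted p under 0.05 there were thus 3 of 12, against 16% of 4095 regions, and at the adjusted threshold 0 of 12, against 0.952%.

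The call of HDAC7_3 depended on the libraries used and on the scaling. In replicate A alone, 4 WT against 4 KO libraries, its log2 difference was -0.68 and its limma adjusted p = 0.0206, where 4.19% of regions passed. KO cells called HDAC7_3 in replicate A only, so the fit over 12 libraries rests on the same 4 KO libraries. The equal difference is therefore not a second measurement. The deposited folds of HDAC7_3 did not overlap there, 3.39 to 5.07 in KO against 5.16 to 10.5 in WT, which was the case for 9.2% of regions in that direction or the other. An exact permutation test on the centred values of those 8 libraries gave p = 0.0571 over 70 arrangements. Complete separation would give a smaller p, so the genotypes overlapped once library medians were subtracted. HDAC4_9 was at -0.54 in replicate A with overlapping folds (exact permutation p = 0.0857). HDAC9_7 passed only without WT esiCT UNT replicate A, at 0.67 (limma adjusted p = 0.0342).

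OXPT against UNT gave no element past the adjusted threshold. HDAC4_15 was called in 6 UNT and 2 OXPT libraries (-50.0 points) and HDAC9_2 in 0 UNT and 4 OXPT libraries (50.0 points), each with an exact p = 0.0918, the smallest of the 31, and an adjusted p = 1.0. HDAC4_3 followed at 37.5 points (exact p = 0.143). None of the 31 had an unadjusted p under 0.05, against 2.12% of all regions (426 of 20090, 0 adjusted). Peak numbers per locus differed by -0.61 (MEF2C) to 0.43 (HDAC9) on the log2 scale, with 0 of 8 under 0.05 against 1.37% of genes. Summit folds differed by at most 0.17 in either direction. HDAC4_9 was at 0.02 ± 0.16, HDAC4_10 at 0.04 ± 0.14, HDAC4_16 at -0.10 ± 0.16 and HDAC4_17 at -0.05 ± 0.14 (SE, limma), and 0 of 12 had an unadjusted p under 0.05 against 6.84% of regions.

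Silencing of HDAC4 likewise left no element past the adjusted threshold, those of its own gene included. The smallest exact p among the 31 element calls was 0.257, with 0 under 0.05 against 0.219% of regions (44 of 20090, 0 adjusted). Peak numbers differed by -0.24 (HDAC9) to 0.38 (MEF2D) on the log2 scale, 0.09 at HDAC4 (exact permutation p = 0.854), with 0 of 8 under 0.05 against 0.218% of genes. Summit folds of the HDAC4 elements differed by -0.03 ± 0.16 for HDAC4_9, 0.02 ± 0.14 for HDAC4_10, -0.05 ± 0.16 for HDAC4_16 and 0.01 ± 0.14 for HDAC4_17 (SE, limma). HDAC9_7 had the only unadjusted p under 0.05 of the 12, at -0.37 ± 0.16 (limma adjusted p = 1.0), against 3.81% of regions.

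The study's interest lay in whether FBXW7 status alters the response to OXPT and in what HDAC4 silencing does in treated KO cells. For the first, the OXPT response in esiCT cells was taken as KO minus WT. HDAC4_16 was at -0.93 ± 0.43 (SE, limma adjusted p = 0.985) and HDAC9_7 at -0.80 ± 0.41 (limma adjusted p = 0.985), so 1 of 12 was under 0.05 against 4.24% of regions. The underlying folds of HDAC4_16 were 4.45 and 5.90 (UNT) and 5.33 and 4.94 (OXPT) in WT, and 6.17 in replicate A (UNT) and 4.70 and 3.49 (OXPT) in KO, where replicate B of UNT was not called. For the second, HDAC4_17 was at 0.52 ± 0.26 in KO OXPT cells, esiHDAC4 minus esiCT (limma adjusted p = 0.999), with folds of 4.58 and 3.71 in esiCT and 4.88 and 5.86 in esiHDAC4. None of the 12 was under 0.05, against 4.33% of regions.

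Motif content of the elements was described over 201 bp at each summit, on both strands. Windows of the 67 elements were centred on the peak with the smallest p-value, those of all 58860 regions on the peak with the highest fold. The shares are thus not from windows chosen alike, and the part of this choice was not tested. The MEF2 motif was found in 6 of 67 windows (9.0%) against 3.1% of all 58860, and the FOXO motif TGTTTAC in 4 (6.0%) against 2.3%. The AP-1 motif TGANTCA was found in 3 (4.5% against 4.9%), the E-box CACGTG in 2 (3.0% against 2.8%) and the GC box GGGCGG in 6 (9.0% against 13.9%). All 4 FOXO matches were in elements called in at least 3 libraries, HDAC4_2, HDAC7_3, HDAC9_7 and MEF2D_2. Of the 6 windows with a MEF2 motif, only MEF2C_1 was called in at least 3 libraries. The others were HDAC4_1, HDAC4_14, HDAC7_8, HDAC7_11 and HDAC9_9, each called once. HDAC4_15 held an E-box. The counts are small, and a match is not a bound site.

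The partners and regulators of the class IIa proteins were read from their own loci in the same way. Among the corepressor genes, NCOR1 (log2 peak number -0.97, KO minus WT, exact p = 0.00898) and GPS2 (-0.71, exact p = 0.0449), subunits of the complex that supplies HDAC3 activity to class IIa deacetylases, were lower in KO at an unadjusted p under 0.05. Of 14 kinase and 14-3-3 genes tested of 17, CAMK1, MARK2, PRKD2, SIK3, YWHAB and YWHAG were lower, from -1.0 to -0.62. Of 5 MEF2 coactivators and activators EP300 and MAPK14 were lower, of 11 MEF2 target genes tested of 12 JUN, KLF2, KLF4 and NR4A1, and of 6 other deacetylases tested of 7 HDAC2. None passed after adjustment and none was higher. These counts stand beside the 31.3% of all genes. After OXPT only TBL1X had an unadjusted p under 0.05 (-0.84, exact p = 0.0306, adjusted p = 1.0), against 1.37% of all genes. After HDAC4 silencing none did, against 0.218%. PPP3CA, the catalytic subunit of calcineurin that activates MEF2, had an SE in all 16 libraries and 27 to 55 peaks, and NR4A2, an orphan nuclear receptor induced through MEF2, had an SE in 13. Of all genes, 24 (0.12%) had an SE in all 16 libraries and 194 (0.97%) in at least 10.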

How the data were processed

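Per the labels and the methods, adapter trimming (Trimmomatic 0.39), alignment to hg38 (Bowtie2 2.4.4), duplicate removal (SAMtools 1.18), peak calling per library (MACS2 2.2.7.1) and SE definition (ROSE) were done by the authors. The deposited lists give each peak a fold (a ratio of summit pileup to local background), p- and q-values as −log10 and an integer score, and SE positions only. The study kept SEs that also carried H3K4me1, and whether the deposited SE lists had that filter is unknown. The 4 input samples were not analysed here. Fold and p were solved for whole summit reads (99.8% to 100.0% of peaks per library, tolerance 0.01 on −log10 p), which gave the background.

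Of 272083 peaks and 8323 SEs, 533 and 28 on other contigs were left out. A library calls an element when any peak overlaps it, and its value is the highest fold. Calls were tested with an exact conditional test stratified by replicate (regions called in 3 to 13 libraries), peak numbers with exact permutation within replicates (4900 arrangements, smallest p 4.08e-04) and log2 folds with limma 3.58.1 in R 4.3.3, with Benjamini-Hochberg adjustment over all features at 0.05. No pseudocount was added to folds, and 1 was added to peak numbers. The replicate is a term because the study's design formula holds it. Tests were tried on simulated data. Genes came from GENCODE version 44, start-site calls from a 1 kb window and RefSeq starts from a table (GRCh38.p14) in which no entry was matched for HDAC5. GENCODE start sites were those of protein-coding transcripts only, and exons those of protein-coding genes only. All elements of HDAC4 are named, and of the other genes the most called element, the start-site elements and those with an unadjusted p under 0.05. Members and lists were chosen with earlier results of these data known. A corepressor gene and a sequence are not reported here.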

Additional observations from a re-analysis of the deposited data

Results flagged for a closer look

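Single elements and loci were given 124 checks. An element check could return a result only where every library of the contrast called the element. Most could not, since few elements were called in several KO replicate B libraries, so the number found is not a rate. In 2 checks both WT replicates moved one way and both KO replicates the other under the same contrast, and neither difference was tested. The response of HDAC4_10 to OXPT in esiHDAC4 cells was 0.02 and 0.05 in WT (replicates A and B) and -0.45 and -0.04 in KO on the log2 fold scale, a KO minus WT difference of -0.28. The effect of HDAC4 silencing on HDAC4_17 in OXPT-treated cells was -0.32 and -0.44 in WT and 0.09 and 0.66 in KO, a difference of 0.75.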

How the results depend on the processing

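The KO replicate B lists had the lowest backgrounds, and the part of depth in the genotype comparisons was not tested. Of the results on the 8 genes, 14 passed the adjusted threshold under an alternative and not as reported, 2420 stayed on their side of it. None was called as reported, and values below the threshold did change sign, such as the peak numbers of 6 of the 8 genes relative to the library total. The 14 were the covered length in kb at HDAC4 (-1.30), HDAC5, HDAC7, MEF2C and MEF2D, HDAC5 and MEF2C peak numbers without WT esiCT OXPT replicate B or KO esiCT OXPT replicate A, HDAC7_3 in replicate A, without centring, with quantile normalization or without KO esiCT OXPT replicate B, and HDAC9_7 without WT esiCT UNT replicate A (0.67).

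Over all genes, peak numbers for KO against WT gave 0 calls as reported, 0 to 1192 when 1 library was left out (1192 without WT esiCT OXPT replicate B, 807 without KO esiCT OXPT replicate A), 2498 relative to the library total and 3069 as covered kb. Summit fold for KO against WT gave 12 calls over the 472 regions. It gave 4 without the replicate block, 190 in replicate A, 0 among the 4 regions with −log10 q of at least 10, 39 over regions called in at least 12 libraries and 4 by exact permutation. With that lower minimum, combinations chosen after seeing the data gave 0 without the block, 49 without centring and 42 with quantile normalization. Leaving out 1 library gave 4 to 16 over the 472 regions and 6 to 74 over those called in most libraries, with 29 without WT esiCT UNT replicate A, 30 without WT esiCT OXPT replicate B, 38 without WT esiHDAC4 UNT replicate B, 19 without WT esiHDAC4 OXPT replicate A, 27 without KO esiCT OXPT replicate A, 74 without KO esiCT OXPT replicate B, 6 without KO esiHDAC4 UNT replicate A, 51 without KO esiHDAC4 UNT replicate B and 53 without KO esiHDAC4 OXPT replicate B. For OXPT summit fold gave 0, and 2 in replicate A, 2 with peaks merged within 500 bp, 1 without centring, 1 on log2 of −log10 p, 1 from at least 12 libraries (1 with quantile normalization, 12 on −log10 p) and 0 to 4 with 1 library left out. On −log10 p from at least 12 libraries, HDAC4 silencing gave 2 calls and silencing in KO OXPT cells 3. The cause of these changes was not tested. Over 28 pairs of groups the correlation of A minus B differences ran from -0.06 to 0.39 and was above 0.1 in 12, so that replicate letters deviated together in some pairs and not in others. Leaving out the replicate block changed no call of the 8 genes.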
